A study of Mus musculus with 15 samples.

Results

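Liver messenger RNA of OO mice fed chow until day 20 or day 23 was compared with that of OO mice at day 0, to show what changed over the second phase of the experiment when neither carbon tetrachloride (CCl4) nor ethanol was given. The members were chosen by their labels, as every library of the OO arm at day 0 (libraries 1 and 2) and every later OO library with chow (library 12 at day 20 and library 5 at day 23). They make 4 of the 15 libraries of the series. All are livers of adult male C57BL/6 mice, and the numbers are those of the sample labels. The name OO stands for the arm without CCl4 and is not spelled out in the labels. The full study gave other mice CCl4, a solvent that hepatocytes turn into a toxic radical, at 0.2 ml/kg 2 times per week for 6 weeks, and then ethanol by gastric tube for 3 weeks with or without CCl4 at 0.5 of the dose. Library 12 is labelled OO+OO/chow in substudy 2-4 and library 5 OO+chow in substudy 2-3. By these labels the later pair differs in day, in substudy and in whether OO was named again for the second phase. The names of the count tables give both the same day, so the difference in day is uncertain. The day 0 labels name no substudy, so substudy and time cannot be told apart in this comparison. The labels do not say that each library came from a separate animal, and p-values therefore measure the spread between these samples only. A further 4 libraries served as a comparison with no library in common, CCl4 animals at day 0 (libraries 3 and 4) and CCl4 animals with chow at day 20 (libraries 16 and 17), which received CCl4 at the lower dose in between.

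A mouse liver is mostly hepatocytes, which make plasma proteins, bile acids and fat, with Kupffer cells (resident macrophages), endothelium and stellate cells between them. Hepatocytes build fatty acids from carbohydrate under the transcription factors SREBP1c, encoded by Srebf1, and ChREBP, encoded by Mlxipl, both of which respond to feeding. MHC class II molecules present peptides to helper T cells. They are made by macrophages, dendritic cells and B cells under the coactivator CIITA.

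Gene counts in the 4 OO libraries ran from 11448618 to 14999801. Several library measures split by group. The share of listed reads aligned to more than 1 place was 27.5% and 28.8% in libraries 1 and 2 and 21.8% and 21.9% in libraries 12 and 5. The share in genes was 43.5% and 41.4% and then 45.1% and 46.8%, genes detected numbered 16428 and 16159 and then 16810 and 16853, and TMM factors were 0.952 and 0.955 and then 1.02 and 1.03. Their part in the results was not tested. The hepatocyte gene Alb stood at 34800, 40700, 54700 and 38700 CPM (counts scaled to a common library total, here without TMM scaling) in libraries 1, 2, 12 and 5, while the muscle markers Acta1 and Ckm were at 0 in all 4. The fat cell markers Adipoq and Plin1 were at 0 at day 0 and at 0.646 and 0.404 CPM in library 12 and at 0.667 and 0.267 CPM in library 5. The table names put libraries 1, 2, 12 and 5 on the separate lanes 1, 3, 4 and 5, so lane and group cannot be told apart within these 4 libraries. Each pair differed by more than counting error, with a chi-square per degree of freedom of 28.9 at day 0 and 32.8 later.

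Library 12 carried transcripts of the exocrine pancreas, the gland that secretes digestive enzymes and lies against the liver. The unscaled levels of 30 pancreas genes, without TMM, summed to 12.1 and 14.4 CPM at day 0, 236 CPM in library 12 and 9.67 CPM in library 5. Only library 12 stood high among the 4, and 26 of the 30 genes had their highest level there. The lipase gene Pnlip held 294 counts in library 12 and 0 counts in libraries 1, 2 and 5, at least 90.7-fold higher against a floor of 3 counts per library. The carboxypeptidase gene Cpb1 held 202 counts against 0, at least 62.3-fold higher. Together 17 of the genes had 0 counts in the other libraries and more than 3 in library 12, and the lowest of their bounds was 1.54-fold. In the test of both later libraries against day 0, 24 pancreas genes were measured and 0 passed (edgeR quasi-likelihood F-test, p adjusted by Benjamini-Hochberg, against 0.108% of all genes called), with 15 of them higher at an unadjusted p under 0.05. Pancreas carry-over in library 12 was known when the comparison was chosen, so these values are a description. They are those of library 12 alone and are described apart from the change over the second phase. Totals of called genes below still count any pancreas gene that passed. DESeq2 called 2 of them higher, and the fit without library 5 called more.

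**Figure D1:**
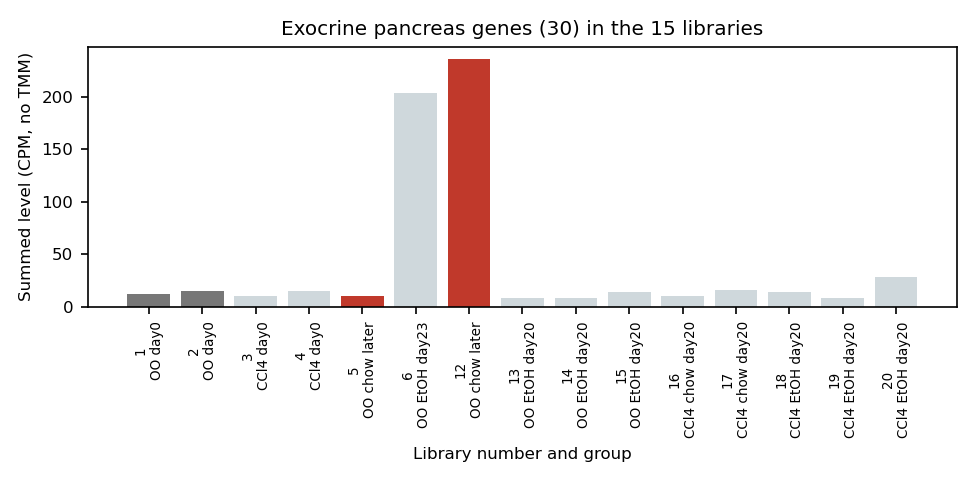
Summed level of 30 exocrine pancreas genes (CPM without TMM scaling, y axis) in each of the 15 libraries (x axis), with the OO day 0 libraries in dark grey and the later OO chow libraries in red. Library 12 stands at 236 CPM and the ethanol library 6 at 204 CPM, while library 5 stands at 9.67 CPM.

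Over the second phase 16 of 14778 tested genes changed in OO livers, which is 0.108% of those tested: 11 were higher later (0.0744%) and 5 lower (0.0338%). Genes that rose included the MHC class II genes H2-Aa and H2-Eb1, the fatty acid elongase gene Elovl5 and the chemokine gene Ccl2. Genes that fell included the bile acid enzyme gene Cyp39a1 and 3 other genes of conjugation and oxidation. The test was the quasi-likelihood F-test of edgeR on counts, with the spread estimated over all 15 libraries, and a gene was called at an adjusted p under 0.05 after Benjamini-Hochberg adjustment over all genes. At an unadjusted p under 0.05 there were 1274 genes higher (8.62%) and 791 lower (5.35%). The number called was 7 without library 1, 2 without library 2, 212 without library 5 and 8 without library 12, and DESeq2 called 345. A fit on the 4 compared libraries alone kept the calls of H2-Aa, Acnat2, Cyp3a59 and Cyp39a1 and lost the other 12. With limma-voom, with and without lane, the calls of Ccl2, Inhbb, Abcd2, Rassf4, Hcls1 and Zswim6 were lost, with a filter of 1 CPM those of Ccl2, Inhbb, Abcd2, Rassf4 and Slc16a1, and without the ethanol libraries those of Inhbb, Rassf4 and Zswim6.

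**Figure D2:**
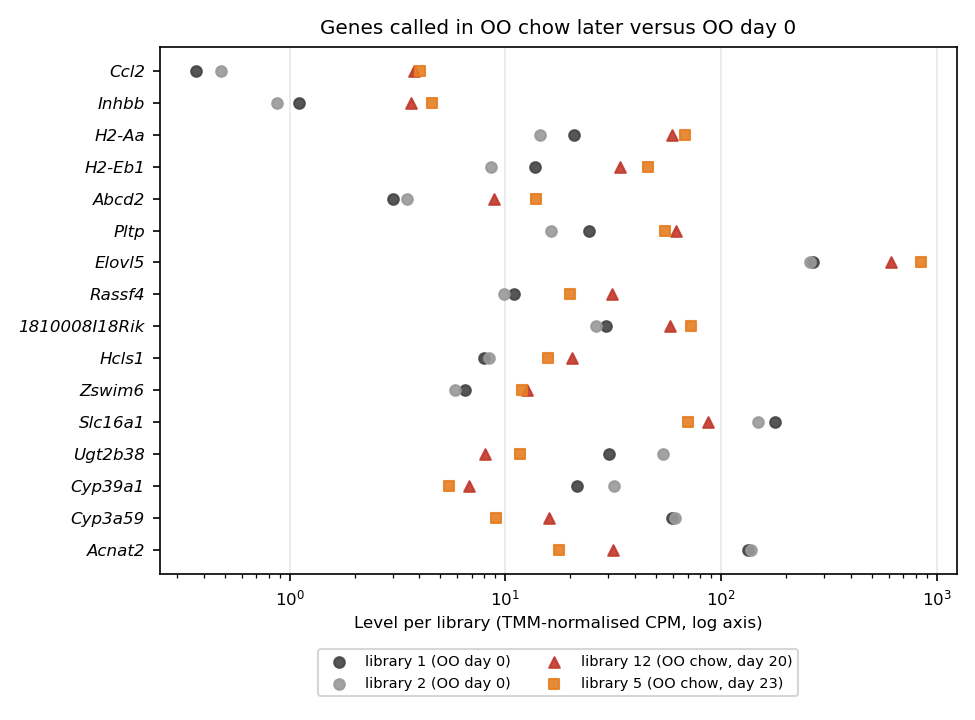
Level of each of the 16 called genes (TMM-normalised CPM, logarithmic x axis) in the day 0 libraries 1 and 2 (grey circles), library 12 at day 20 (red triangles) and library 5 at day 23 (orange squares). For every gene both later libraries lie on the same side of both day 0 libraries, as in Cyp39a1 with 21.5 and 31.9 CPM at day 0 and 6.8 and 5.46 CPM later.

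H2-Aa encodes the alpha chain of the class II molecule A and H2-Eb1 the beta chain of the molecule E. Both lie in the major histocompatibility complex on chromosome 17, H2-Aa at chr17:34282744-34287823 on the minus strand and H2-Eb1 at chr17:34305867-34316674 on the plus strand of mm10. The sequences just upstream of class II genes are known for a shared arrangement of an X box and a Y box, the latter an inverted CCAAT, through which the RFX and NF-Y proteins bring in CIITA. The 250 bases before the start of 3 class II genes are shown because these genes stood higher together or share that arrangement, 5′ to 3′ on the gene's strand (RefSeq, build GRCm38.p6). Capitals mark CTNGNAAC, the core letters of the X box, and TGATTGG, those of the Y box, which were chosen after the sequences were read and were searched on both strands.
H2-Aa: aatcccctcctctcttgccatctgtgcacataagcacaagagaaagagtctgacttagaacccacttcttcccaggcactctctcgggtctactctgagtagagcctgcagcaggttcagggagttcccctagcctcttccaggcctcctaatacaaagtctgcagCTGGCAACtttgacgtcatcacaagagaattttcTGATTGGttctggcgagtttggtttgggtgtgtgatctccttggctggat
H2-Eb1: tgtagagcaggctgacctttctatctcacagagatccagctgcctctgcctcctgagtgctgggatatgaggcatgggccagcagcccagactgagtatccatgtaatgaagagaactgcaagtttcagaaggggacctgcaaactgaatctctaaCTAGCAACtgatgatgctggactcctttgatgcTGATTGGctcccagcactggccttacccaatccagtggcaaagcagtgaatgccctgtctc
H2-DMb1: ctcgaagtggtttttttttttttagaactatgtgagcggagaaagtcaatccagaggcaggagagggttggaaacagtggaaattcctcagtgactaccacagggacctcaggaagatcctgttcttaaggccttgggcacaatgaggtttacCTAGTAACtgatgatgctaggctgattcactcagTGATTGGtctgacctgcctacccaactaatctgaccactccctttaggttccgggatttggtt
The windows are chr17:34287824-34288073 on the minus strand for H2-Aa, chr17:34305617-34305866 on the plus strand for H2-Eb1 and chr17:34152941-34153190 on the plus strand for H2-DMb1, which encodes a beta chain of the peptide-loading molecule DM. In each of them the X box core comes first and the Y box core follows, beginning 50, 61 and 63 bases before the start. Of 32851 upstream windows of this length 10.9% held the first motif, 7.23% the second and 0.819% both. The 2 windows listed for H2-DMa, the alpha chain of DM, did not hold both. No window was available for the class II genes H2-Ab1 and Cd74. The letters and the choice of H2-DMb1 were made with these sequences in view, so their presence in the sequences shown is no test. A match of letters is a description and does not show binding.

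The transcript of H2-Aa stood at 20.8 and 14.5 CPM in libraries 1 and 2 and at 59.1 and 67.9 CPM in libraries 12 and 5. Both later libraries were above both day 0 libraries, a log2 change of 1.85 ± 0.22 (SE; edgeR adjusted p = 0.00741). H2-Eb1 stood at 13.7 and 8.62 CPM at day 0 and at 33.9 and 46.0 CPM later, a log2 change of 1.85 ± 0.28 (SE; edgeR adjusted p = 0.037). The other class II genes had values of the same order without passing. H2-Ab1, the beta chain of the molecule A, had a log2 change of 1.66 ± 0.29 (edgeR adjusted p = 0.0621), Cd74, the invariant chain, 1.65 ± 0.32 (0.0742), H2-DMb1 1.34 ± 0.24 (0.0636), H2-DMa 1.21 ± 0.42 (0.213) and Ciita 0.99 ± 0.30 (0.176; SE). Cd74 stood at 39.5 and 36.7 CPM at day 0 and at 117 and 122 CPM later, so the groups did not overlap. Class I genes, which nearly all cells use, had small values: 0.02 ± 0.17 for H2-K1, 0.08 ± 0.17 for H2-D1 and -0.06 ± 0.15 for the light chain gene B2m (SE). Of the 14 genes in the list of antigen presentation 2 rose and 0 fell, against 0.0744% and 0.0338% of all genes. The median log2 change of the list was 0.323 against 0.0166 over all genes tested. Without library 2 the H2-Aa call was lost (edgeR adjusted p = 0.117), and the H2-Eb1 call without library 1, 2 or 12 (highest adjusted p = 0.388). H2 genes are similar to each other and reads with more than 1 alignment were not counted, so levels of single members are uncertain.

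Macrophage genes stood higher in the same libraries. Of 14 Kupffer cell and macrophage genes 0 passed and 12 were higher at an unadjusted p under 0.05, against 8.62% of all genes. All 14 had both later libraries above both day 0 libraries, against 25.9% of all genes. Their summed level without TMM scaling was 1113 and 1008 CPM at day 0, 2156 CPM in library 12 and 1570 CPM in library 5. Csf1r, the receptor for the macrophage growth factor, stood at 132 and 116 CPM at day 0, 317 CPM in library 12 and 182 CPM in library 5 (log2 change 1.01 ± 0.21, SE; edgeR adjusted p = 0.0835). The scavenger receptor gene Marco stood at 36.2 and 17.8 CPM and then at 223 and 69.6 CPM (2.44 ± 0.64, SE; adjusted p = 0.12 by edgeR). For most of these genes library 12 was the highest of the 4, and the median change from day 0 was 0.977 in library 12 and 0.468 in library 5. Clec4f, which marks Kupffer cells, stood at 182, 179.8, 266 and 216 CPM in libraries 1, 2, 12 and 5. In bulk tissue more cells of a type and more RNA per cell cannot be told apart, and the part of these cells in the class II values was not tested. DESeq2 called 5 of the 14 higher, against 250 of all 14778 genes tested. Without library 12 the median was 0.427, and without library 5, with library 12 alone, it was 0.976. The B cell marker Cd79a stood at 0.349, 0.686, 1.05 and 0.4 CPM (without TMM) in libraries 1, 2, 12 and 5. These levels are near the floor and do not order the libraries. Of 17 lymphocyte genes 0 passed, and their median log2 change of 0.48 was 0.0901 without library 12.

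Ccl2, the chemokine that draws in monocytes, stood at 0.367 and 0.479 CPM at day 0 and at 3.79 and 4.03 CPM later, a 9.03-fold higher fitted level (log2 change 3.18 ± 0.52, SE; edgeR adjusted p = 0.0493). It was chosen after its values were seen, since its level is under the minimum of 5 CPM set for named genes. Hcls1, a cytoskeletal adaptor of blood cells, stood at 7.98 and 8.38 CPM and then at 20.3 and 15.7 CPM (1.14 ± 0.18, SE; edgeR adjusted p = 0.0395). Rassf4, a Ras-association protein gene, stood at 10.9 and 9.90 CPM and then at 31.1 and 20.0 CPM (1.29 ± 0.21, SE; edgeR adjusted p = 0.0493). In all of these the later libraries were both higher, and library 12 was the highest for Hcls1 and Rassf4. Each of these 3 calls was lost without library 1, 2 or 12, with highest adjusted p of 0.397 for Ccl2, 0.339 for Hcls1 and 0.438 for Rassf4.

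In the monocyte list Ccl2 was the 1 gene of 16 that rose, against 0.0744% of all genes, and the list's median log2 change was 1.32. At an unadjusted p under 0.05, 10 of its genes were higher, against 8.62% of all genes. Gpnmb, a glycoprotein of lipid-loaded macrophages, stood at 0.551 and 0.0799 CPM at day 0, 33.7 CPM in library 12 and 2.41 CPM in library 5 (log2 change 5.85 ± 1.39, SE; edgeR adjusted p = 0.103). Lyz2, the lysozyme gene of myeloid cells, stood at 128, 117, 439 and 188 CPM in libraries 1, 2, 12 and 5. Library 12 was thus well above library 5 for both, and without library 12 the list's median was 0.47 and 0 of its genes passed. Of 15 neutrophil genes 0 passed, and their median of 1.2 was 0.0558 without library 12. Among the 20 interferon-stimulated genes 0 passed and all 20 fitted changes were positive, with a median of 0.915, and 18 were higher with no overlap between the groups, against 25.9% of all genes. Irf7, a regulator of interferon genes, stood at 28.2 and 29.0 CPM and then at 69.3 and 49.1 CPM (1.05 ± 0.27, SE; edgeR adjusted p = 0.112). Gbp3, an interferon-induced GTPase gene, stood at 8.63 and 7.27 CPM and then at 15.5 and 14.7 CPM (0.93 ± 0.18, SE; edgeR adjusted p = 0.0784). DESeq2 called 6 interferon-stimulated genes higher, against 250 of all 14778 genes tested. It gave 19 positive changes of 20, as did RLE scaling. Without library 12 the median was 0.495, with 0 passing, and without library 5 there were 4 passing.

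Genes of fatty acid synthesis stood higher in both later libraries. Elovl5 was the 1 gene of 22 in the list that rose, against 0.0744% of all genes. Elovl5 lengthens polyunsaturated fatty acids and lies at chr9:77917364-77984519 on the plus strand. Its transcript stood at 268 and 259.8 CPM at day 0 and at 616 and 845 CPM later, a 2.77-fold higher fitted level (log2 change 1.47 ± 0.16, SE; edgeR adjusted p = 0.00519). Both later libraries were more than 2-fold above both day 0 libraries. The call was lost without library 2 (edgeR adjusted p = 0.0733) and in the fit on the 4 compared libraries (0.078). The 250 bases before its start, chr9:77917115-77917364 on the plus strand (RefSeq, GRCm38.p6), are shown because this is the lipogenic gene that passed. Capitals mark CACGTG, an E-box, and CCAAT on either strand, letters chosen after the sequence was read, which 6.02% and 33.8% of such windows held and 1.98% held together.
Elovl5: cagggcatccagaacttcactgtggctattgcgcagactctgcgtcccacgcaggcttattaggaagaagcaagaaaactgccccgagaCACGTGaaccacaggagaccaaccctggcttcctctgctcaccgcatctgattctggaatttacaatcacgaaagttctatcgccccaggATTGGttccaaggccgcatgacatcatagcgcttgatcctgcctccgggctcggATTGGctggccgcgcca
The E-box begins 161 bases before the start, and the inverted CCAAT letters begin 71 and 17 bases before it.

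The other members of the lipogenesis list did not pass, although 15 of the 22 were higher at an unadjusted p under 0.05, Elovl5 among them, and 1 was lower. Of all genes 8.62% were higher and 5.35% lower at that p. Both later libraries were above both day 0 libraries for 17 members, against 25.9% of all genes. The median log2 change was 0.938 over the list and 0.0166 over all genes, with 0.748 in library 12 and 1.21 in library 5. Scd1, the stearoyl-CoA desaturase of liver, stood at 4272 and 4272 CPM in libraries 1 and 2 and at 14736 and 16878 CPM in libraries 12 and 5 (log2 change 1.89 ± 0.55, SE; edgeR adjusted p = 0.159). Fasn, fatty acid synthase, stood at 658 and 871 CPM and then at 1769 and 2575 CPM (1.51 ± 0.60, SE; edgeR adjusted p = 0.29). The day 0 libraries were level for Scd1 and differed for Fasn. The tests of both genes drew on the spread over all 15 libraries. Scd1 passed in the fit on the 4 compared libraries (edgeR adjusted p = 0.048) and without the ethanol libraries (0.028). Fasn passed in neither. Lpin1, a phosphatidate phosphatase of fat synthesis, stood at 39.3 and 35.9 CPM and then at 98.4 and 159.8 CPM (1.78 ± 0.37, SE; edgeR adjusted p = 0.0835). Pnpla3, a lipid droplet acylhydrolase gene known as a target of SREBP1c, stood at 0.642 and 0.719 CPM and then at 11.3 and 8.26 CPM (3.82 ± 1.07, SE; adjusted p = 0.145 by edgeR). Of the regulators, Srebf1 stood at 261 and 217 CPM and then at 357 and 459.8 CPM (0.77 ± 0.54, SE), and Mlxipl at 136 and 145 CPM and then at 193 and 197 CPM (0.47 ± 0.34, SE). The last steps of triglyceride synthesis had values near 0: -0.01 ± 0.17 for Dgat2 and -0.00 ± 0.18 for Dgat1 (SE). Among glycolytic genes 0 of 16 passed (2 with DESeq2), with Pklr, the liver pyruvate kinase and a ChREBP target, at 85.4 and 88.4 CPM and then 156 and 328 CPM (1.48 ± 0.34, SE; edgeR adjusted p = 0.094). DESeq2 called 7 lipogenic genes higher, and a fit without the ethanol libraries called 6. Over all 14778 genes tested these settings called 250 and 31 higher.

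**Figure D3:**
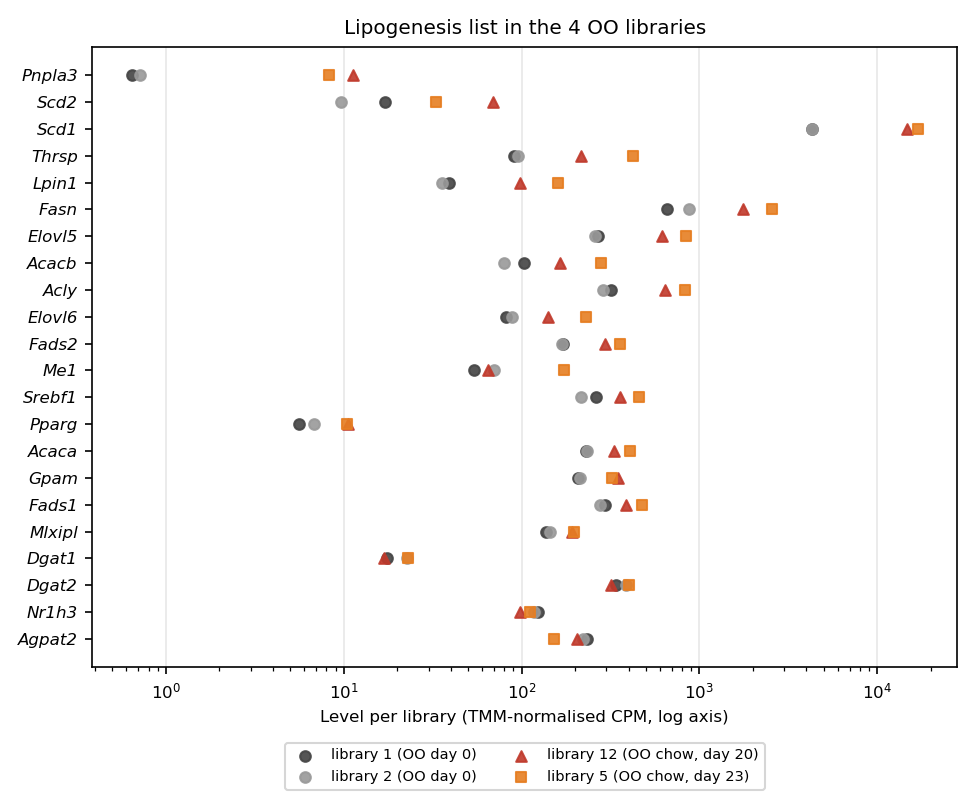
Level of the 22 lipogenesis genes (TMM-normalised CPM, logarithmic x axis) in the day 0 libraries 1 and 2 (grey circles), library 12 (red triangles) and library 5 (orange squares), ordered by fitted log2 change. In 17 genes both later libraries lie above both day 0 libraries, and Elovl5 is the 1 gene that passed the test.

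Lipid transfer and transport genes were also among those called. Pltp, which moves phospholipids between lipoproteins, stood at 24.4 and 16.4 CPM at day 0 and at 61.7 and 54.9 CPM later (log2 change 1.52 ± 0.22, SE; edgeR adjusted p = 0.0263). Abcd2, a peroxisomal importer of very long chain fatty acids, stood at 3.03 and 3.51 CPM and then at 8.85 and 13.8 CPM (1.79 ± 0.30, SE; edgeR adjusted p = 0.0493). The Pltp call was lost without library 2 or 12, and the Abcd2 call without any of the 4 libraries. Also higher were Inhbb, a subunit of activin B, at 1.10 and 0.878 CPM and then 3.64 and 4.55 CPM (2.05 ± 0.33), and the zinc finger gene Zswim6, at 6.52 and 5.83 CPM and then 12.6 and 12.0 CPM (1.00 ± 0.16, SE; edgeR adjusted p = 0.0493 for both). The long non-coding RNA 1810008I18Rik stood at 29.5 and 26.4 CPM and then at 58.3 and 73.0 CPM (1.23 ± 0.18, SE; edgeR adjusted p = 0.0263). Inhbb and 1810008I18Rik were outside the rule for named genes and were chosen after their values were seen. Without library 1 or 2 all 3 of these calls were lost, and without library 12 those of Inhbb and Zswim6.

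Genes that fell were mostly enzymes of hepatocytes. Cyp39a1, an oxysterol hydroxylase that feeds bile acid synthesis, lies at chr17:43667425-43751431 on the plus strand. It stood at 21.5 and 31.9 CPM in libraries 1 and 2 and at 6.8 and 5.46 CPM in libraries 12 and 5, a 4.37-fold lower fitted level (log2 change -2.13 ± 0.22, SE; edgeR adjusted p = 0.00519). It was the 1 gene of the 16 that passed in each of the 4 fits that left out a library and in all 14 alternatives. Acnat2, of the acyl-CoA amino acid N-acyltransferase family, lies at chr4:49379840-49408151 on the minus strand. It stood at 133 and 139 CPM at day 0 and at 31.7 and 17.7 CPM later (-2.46 ± 0.28, SE; edgeR adjusted p = 0.00651), and its call was lost without library 2 (0.0507). Both genes had day 0 libraries well above the later ones. Ugt2b38, a glucuronosyltransferase gene, stood at 30.4 and 54.1 CPM and then at 8.06 and 11.7 CPM (-2.09 ± 0.26, SE; edgeR adjusted p = 0.01). Cyp3a59, a cytochrome P450 gene, stood at 59.2 and 61.2 CPM and then at 15.9 and 9.04 CPM (-2.28 ± 0.35, SE; edgeR adjusted p = 0.0395). Both belong to families with close copies, and their values are uncertain for that reason. Slc16a1, the transporter of lactate and ketone bodies, stood at 177 and 148 CPM and then at 87.2 and 70.5 CPM (-1.05 ± 0.17, SE; edgeR adjusted p = 0.0493). The Slc16a1 call was lost without any of the 4 libraries, the Cyp3a59 call without library 1, 2 or 12, and the Ugt2b38 call without library 2 or 12.

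Of the 27 genes in the list of drug-metabolising P450s and their regulators 0 passed, and the median log2 change was -0.000715. DESeq2 called 2 of them lower, as did the fit without the ethanol libraries, and edgeR with no filter called 1. Over all genes these settings called 95, 20 and 22 lower. Within it Cyp3a11, the main P450 3A gene of mouse liver, stood at 3803 and 4476 CPM and then at 1680 and 1032 CPM (-1.61 ± 0.33, SE; edgeR adjusted p = 0.0784), and Cyp3a25 at 916 and 1085 CPM and then at 505.5 and 394.5 CPM (-1.15 ± 0.31, SE; 0.126). Members of the 2c family such as Cyp2c29 had overlapping libraries, at 916, 1224, 1018 and 1350 CPM in libraries 1, 2, 12 and 5. Of 20 bile acid genes 0 passed, and 1 was called lower by DESeq2, by edgeR with no filter and by edgeR without the ethanol libraries. Among them Cyp7b1, another oxysterol hydroxylase, stood at 675 and 646 CPM and then at 229 and 250.5 CPM (-1.46 ± 0.28, SE; edgeR adjusted p = 0.0742). Cyp7a1, the rate-limiting enzyme of bile acid synthesis, stood at 54.3 and 178 CPM and then at 182 and 299.9 CPM (1.05 ± 0.92, SE), so the spread at day 0 was of the size of the difference.

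Acute-phase genes, which hepatocytes express in inflammation, were for the most part highest in library 1. Lcn2, encoding lipocalin 2, stood at 1174 and 277 CPM at day 0 and at 448 and 139 CPM in libraries 12 and 5 (log2 change -1.31 ± 0.69, SE; edgeR adjusted p = 0.426). Saa3, a serum amyloid A gene of macrophages and liver, stood at 406 and 81.1 CPM and then at 13.7 and 11.3 CPM (-4.29 ± 0.79, SE; edgeR adjusted p = 0.0665). The Lcn2 groups overlapped and the Saa3 groups did not. Of 24 acute-phase genes 0 passed and 7 were lower at an unadjusted p under 0.05, against 5.35% of all genes. Their median of -0.661 was -0.189 without library 1. DESeq2 called 3 lower, and edgeR with no filter called 1. Over all genes these settings called 95 and 22 lower. Haptoglobin (Hp) stood at 12847, 8426, 8841 and 6071 CPM in libraries 1, 2, 12 and 5.

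Several circadian clock genes set library 5 apart from the other 3. Dbp, a clock output factor, stood at 4.5 and 3.11 CPM at day 0, 2.45 CPM in library 12 and 35.4 CPM in library 5. Arntl, the clock activator BMAL1, ran the other way, at 29.3, 38.5 and 35.3 CPM in libraries 1, 2 and 12 and 6.96 CPM in library 5. Per3 stood at 8.35, 6.23, 6.8 and 41.5 CPM in the same order. The labels give no hour of collection. Fitted over both later libraries, 0 of 15 core clock genes passed, and the list's median change from day 0 was -0.0842 in library 12 and 0.872 in library 5. Other clock genes stood higher in both later libraries. Nr1d1, the repressor REV-ERB alpha, stood at 12.6 and 13.2 CPM at day 0 and at 25.4 and 28.8 CPM in libraries 12 and 5 (1.07 ± 0.48, SE; edgeR adjusted p = 0.34). Per1, which glucocorticoids and feeding also drive, stood higher in both, at 2.39 and 1.20 CPM and then at 10.5 and 21.3 CPM (3.16 ± 0.66, SE; edgeR adjusted p = 0.0835), and passed with DESeq2 (0.000323), with no filter (0.036) and without the ethanol libraries (0.0222). Srebf1, Fasn and other lipogenic genes are also known to cycle over the day. The part of the clock genes in the lipogenic values was not tested.

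Collagen genes were highest in library 12, and cell division genes stood higher in both later libraries. Col1a1, a fibrillar collagen of activated stellate cells, stood at 7.16 and 2.16 CPM at day 0, 35.7 CPM in library 12 and 9.43 CPM in library 5 (log2 change 2.29 ± 0.74, SE; edgeR adjusted p = 0.192). Col3a1 stood at 73.6, 36.9, 275 and 98.0 CPM in libraries 1, 2, 12 and 5. For both collagens library 5 lay above library 1 and far below library 12. Of 28 matrix and stellate cell genes 0 passed and 13 were higher at an unadjusted p under 0.05, against 8.62% of all genes. Their median of 0.649 was 0.315 without library 12. DESeq2 called 5 of them higher, against 250 of all 14778 genes tested. The stellate cell marker Lrat stood lower later, at 54.8 and 45.3 CPM and then 32.0 and 31.0 CPM (-0.67 ± 0.36, SE). Mki67, a marker of dividing cells, stood at 3.58 and 3.19 CPM and then at 19.5 and 12.2 CPM (2.22 ± 0.54, SE; edgeR adjusted p = 0.104), and passed with DESeq2 (0.00081) and without the ethanol libraries (0.0222). The 28 cell cycle genes had 27 positive fitted changes, 0 calls (1 with DESeq2) and a median of 0.694, with 0.68 in library 12 and 0.65 in library 5. Most of their levels were low, with Top2a, a DNA topoisomerase of dividing cells, at 3.58 and 1.92 CPM and then at 8.69 and 7.61 CPM.

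**Figure D4:**
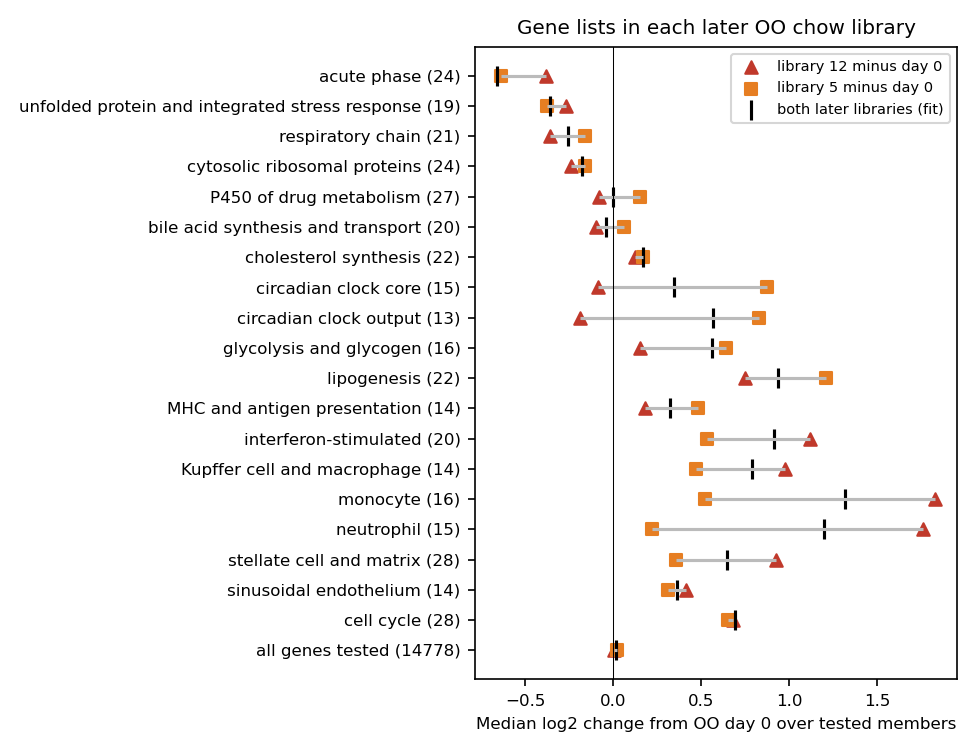
Median log2 change from OO day 0 (x axis) over the tested members of each gene list (y axis, number tested in brackets), for library 12 (red triangles), library 5 (orange squares) and the fit of both (black bars). The lipogenesis median is 0.748 in library 12 and 1.21 in library 5, the clock core median is -0.0842 and 0.872, and the monocyte and neutrophil lists stand higher in library 12.

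From day 0 to day 20 the CCl4 animals had 1615 genes called, 10.9% of those tested, 1009 higher (6.83%) and 606 lower (4.1%). Of the 16 genes called in OO livers, 10 were also called there in the same direction, which is 62.5% of the OO calls and 0.619% of the CCl4 calls. These were H2-Aa, H2-Eb1, Pltp, Ccl2, Hcls1, Rassf4, Inhbb and Zswim6, which were higher, and Cyp3a59 and Ugt2b38, which were lower. H2-Aa stood at 36.7 and 29.6 CPM in libraries 3 and 4 and at 97.3 and 99.0 CPM in libraries 16 and 17 (log2 change 1.56 ± 0.22, SE; edgeR adjusted p = 0.00205). Cyp3a59 stood at 125 and 117 CPM and then at 17.8 and 18.5 CPM (-2.74 ± 0.35, SE; edgeR adjusted p = 0.00189). The difference of the change was 0.29 ± 0.30 for H2-Aa and 0.46 ± 0.48 for Cyp3a59 (OO minus CCl4, log2, SE; edgeR adjusted p = 0.839 and 0.835), and neither passed. Leaving out a CCl4 library left between 6 and 9 of the 10. Both comparisons came from 1 fit in which each gene's spread was shared over all libraries, so their calls are not independent. The CCl4 animals differ from the OO animals in the second-phase CCl4 as well as in their history. Their later libraries were both of day 20, while those of the OO animals were of day 20 and day 23.

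The change over the second phase differed between OO and CCl4 animals for 50 genes by the test of the difference itself, 0.338% of those tested, with 30 higher in OO (0.203%) and 20 lower (0.135%). Of these, 44 had fitted changes of opposite sign and 44 were called in the CCl4 arm. At an unadjusted p under 0.05 the difference was higher in OO for 5.62% of genes and lower for 5.05%. Among the 16 genes of the OO comparison, 5 were in this group. Acnat2 fell in OO livers and rose in CCl4 livers, from 11.1 and 12.6 CPM to 56.8 and 50.1 CPM, a difference of the change of -4.64 ± 0.41 (log2, SE; edgeR adjusted p = 0.000902). Elovl5 rose in OO livers and had a log2 change of -0.52 ± 0.16 in CCl4 livers, where it stood at 622 and 593 CPM at day 0 and at 450.5 and 393.9 CPM at day 20 (difference 1.99 ± 0.22, SE; edgeR adjusted p = 0.00287). The day 0 level of Elovl5 in CCl4 livers thus lay near the later level in OO livers. Cyp39a1 fell in OO livers and stood at 20.2, 22.2, 20.9 and 23.1 CPM in libraries 3, 4, 16 and 17 (difference -2.19 ± 0.30, SE; edgeR adjusted p = 0.01). The RNA 1810008I18Rik rose in OO and fell in CCl4 livers (difference 2.29 ± 0.25), and Slc16a1 fell in OO livers with 0.53 ± 0.17 in CCl4 livers (difference -1.57 ± 0.25, SE; edgeR adjusted p = 0.00237 and 0.0184). The differences of Elovl5, Acnat2 and 1810008I18Rik passed in all 8 fits that left out a library. That of Cyp39a1 was lost without library 3, 4 or 5 (highest adjusted p = 0.0764), and that of Slc16a1 without library 1, 3, 4, 5 or 17 (0.14).

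**Figure D5:**
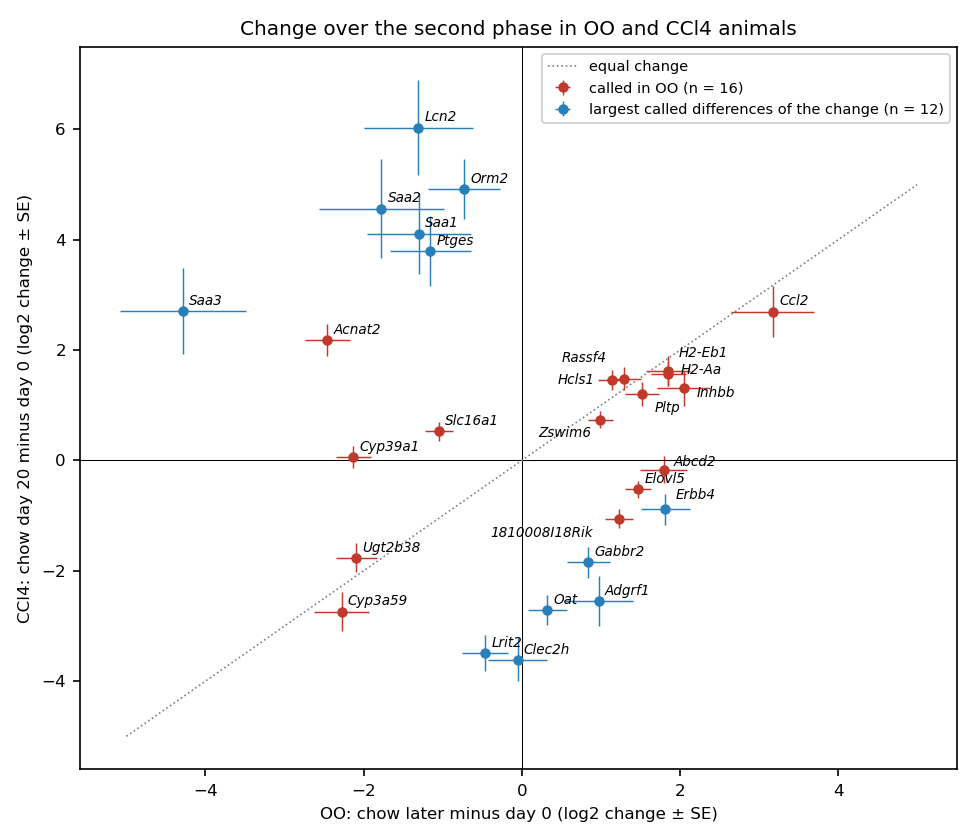
Log2 change over the second phase in OO animals (x axis) and in CCl4 animals with chow (y axis), each with its SE, for the 16 genes called in OO (red) and the 12 largest called differences of the change (blue). The dotted line marks equal change, near which H2-Aa and Cyp3a59 lie, while Acnat2 stands at -2.46 in OO and 2.18 in CCl4 animals.

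The largest differences between the arms were those of acute-phase genes. Lcn2 stood at 8.58 and 4.55 CPM in libraries 3 and 4 and rose to 548 and 329 CPM in libraries 16 and 17 (log2 change 6.03 ± 0.87, SE; edgeR adjusted p = 0.00228), and its difference of the change was -7.34 ± 1.09 (SE; edgeR adjusted p = 0.0145). Orm2, an acid glycoprotein gene, stood at 1196, 520.3, 724 and 308 CPM in libraries 1, 2, 12 and 5, and rose in CCl4 livers from 15.3 and 13.1 CPM to 501 and 361 CPM (difference -5.65 ± 0.70, SE; edgeR adjusted p = 0.00493). In both genes the low group was CCl4 at day 0, and the day 20 CCl4 libraries reached the range of the OO libraries. Of the 24 acute-phase genes 7 had a called difference, all lower in OO. In the other direction Oat, ornithine aminotransferase of pericentral hepatocytes, stood at 912 and 975.5 CPM at day 0 and 1059 and 1305 CPM later in OO livers, with overlap in neither arm, and fell in CCl4 livers from 359 and 262 CPM to 41.0 and 54.0 CPM (difference 3.03 ± 0.37, SE; edgeR adjusted p = 0.00424). The Oat difference passed in all 8 fits that left out a library. That of Lcn2 was lost without library 1, 3, 4, 5 or 16 (highest adjusted p = 0.14), and that of Orm2 without library 3 or 4 (0.0619).

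Between library 12 and library 5 the test called 0 genes with edgeR, with 809 at an unadjusted p under 0.05 (5.47%), 3.36% higher in library 12 and 2.11% lower. With no filter on low counts edgeR called 12, of which 10 were pancreas genes and the others Dbp and Tef, both clock outputs. DESeq2 called 29, of which 9 were pancreas genes, and limma-voom 17, of which 15 were. Each side of this comparison is a single library, for which the spread of the other groups was taken. Of the 27 genes fixed for description whatever their p, 0 passed in the OO comparison. An unadjusted p under 0.05 was found for 10 of them, against 14% of all genes. They were fixed with earlier results of these data known and include the pancreas genes Cela2a and Cpb1, so this share is a description and no test. The gluconeogenic gene Pck1 stood at 1822, 2238, 2001 and 2599 CPM and the glutamine synthetase gene Glul at 886, 1016, 1059 and 1125 CPM in libraries 1, 2, 12 and 5. The 2 groups overlapped for Pck1 but not for Glul. Cdkn1a, the cell cycle inhibitor p21, stood high in library 12 only, at 15.5 CPM against 3.21, 3.27 and 2.15 CPM in libraries 1, 2 and 5.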

How the data were processed

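The labels' protocols describe TruSeq mRNA libraries from total RNA of liver. The authors deposited, for every library, a table of raw counts of reads by gene symbol. The submitters' processing notes name GSNAP, mm10 and DESeq2 1.12.3. No source used here names the counting program, its annotation or whether strand was used, so reads of overlapping or antisense genes cannot be told apart. The tables hold 24499 symbols. A further 5 entries tally reads assigned to no gene and were left out of library totals, so that 41.4% to 53% of the listed reads were used. Table names give a single day for the later libraries, other than either day of the labels. The labels were followed.

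Computed here: TMM scaling, filterByExpr (14778 genes kept) and edgeR 4.0.16 (R 4.3.3) with 1 mean for each of 7 groups, 8 residual degrees of freedom and a common dispersion of 0.0409. Genes were called by the quasi-likelihood F-test at a Benjamini-Hochberg adjusted p under 0.05. CPM are TMM-normalised unless stated, and changes of single libraries used a prior count of 2. The tests were checked on simulated data that took the spread from the fit and held no effect of lane or substudy. That check therefore does not bear on those effects. Alternatives were RLE scaling, no filter, 1 CPM in at least 2 libraries, DESeq2 1.42.0, limma-voom (limma 3.58.1) with and without lane, fits on fewer libraries, pancreas genes left out and each library left out. The fit without library 6 was added after the data were seen. Coordinates are from GENCODE M21 on mm10, which holds 23680 of the symbols, and upstream sequences from RefSeq.

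The members, gene lists and tests were chosen with earlier results of these data known. The naming rule took up to 12 called genes per direction by size, with at least 5 CPM in the higher group and no overlap. It added up to 6 per direction for the difference and 27 fixed genes. Unnamed transcripts, immune receptor segments, Mup and pancreas genes were left out of the rule. Members of the lists are described with their lists. Those outside the rule, such as Csf1r, Marco, Gpnmb, Cyp7b1 and Top2a, were picked with their values known and by no rule set beforehand. A few of the fixed genes are not reported here.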

Additional observations from a re-analysis of the deposited data

Results flagged for a closer look

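These results are given because the change over the second phase differed between OO and CCl4 animals by the test of the difference itself (edgeR quasi-likelihood F-test, Benjamini-Hochberg adjusted p under 0.05), on the log2 scale as OO minus CCl4. Among acute-phase genes the difference was -7.34 for Lcn2, -7.00 for Saa3, -6.34 for Saa2, -5.65 for Orm2 and -5.41 for Saa1. It was -4.95 for Ptges, the microsomal prostaglandin E synthase, whose level was at most 1.68 CPM in the OO libraries. Saa and Orm genes have close copies, so values of single members are uncertain. The difference was 3.56 for the lectin-like gene Clec2h, 3.52 for the adhesion receptor gene Adgrf1, 3.03 for Oat, 3.03 for Lrit2, 2.70 for the receptor tyrosine kinase gene Erbb4 and 2.69 for the GABA receptor gene Gabbr2. In Clec2h and Lrit2 the CCl4 libraries held the change, with Clec2h at 30.6 and 32.1 CPM in libraries 3 and 4 and 1.90 and 3.19 CPM in libraries 16 and 17, against 6.06, 3.99, 4.50 and 5.14 CPM in the OO libraries 1, 2, 12 and 5. Of the genes called in OO livers, the difference was -4.64 for Acnat2, 2.29 for 1810008I18Rik, -2.19 for Cyp39a1, 1.99 for Elovl5 and -1.57 for Slc16a1. Each fit that left out a library kept the call for Oat, Elovl5, Acnat2 and 1810008I18Rik, and the other 13 lost it in at least 2 of 8 such fits. Outside the 4 libraries compared, exocrine pancreas genes summed to 204 CPM without TMM scaling in library 6, an OO library with ethanol at day 23. The OO day 0 libraries held 12.1 and 14.4 CPM.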

How the results depend on the processing

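For OO livers later against day 0 the number of genes called by edgeR was 16, and it was 63 with no filter, 345 with DESeq2, 10 with limma-voom, 10 with limma-voom and lane as a block, 51 without the 7 ethanol libraries, and 2 to 212 with each library left out. RLE scaling, a filter of 1 CPM, the 4 libraries alone, the pancreas genes left out and the fit without library 6 gave 18, 11, 18, 17 and 16, but only 4 of the 18 called in the 4 libraries alone were among the 16. In the CCl4 arm leaving out a library gave 120 to 763 genes. For the difference between the arms no filter gave 88, DESeq2 242 and leaving out a library 8 to 56. Between libraries 12 and 5 there were 12 calls with no filter, 29 with DESeq2 and 17 with limma-voom. No paired analysis was possible because the groups share no replicate numbers. The direction of the 16 genes held in every alternative run. This is no test of it, since both later libraries of each called gene lay on the same side of both day 0 libraries. Of the other genes followed, which did not pass in edgeR's fit of all libraries, Per1 passed with DESeq2, with no filter and without the ethanol libraries, Scd1 on the 4 libraries and without the ethanol libraries, Mt1 and Mki67 with DESeq2 and without the ethanol libraries, and Cela2a and Cpb1 without library 5. Some changed sign with a library left out. The log2 change then ran from -2.41 to 0.081 for Lcn2 (sign changed without library 1), from -0.63 to 3.19 for Dbp, from -2.32 to 0.059 for Arntl and from -0.021 to 0.34 for Pck1 (all 3 without library 5). It ran from -0.625 to 2.25 for Cdkn1a, from -0.10 to 0.43 for Alb and from -0.34 to 5.11 for Cela2a (all 3 without library 12). For Cpb1, at 0 counts in libraries 1, 2 and 5, it ran from 0 without library 12 to 10.9. For Cyp4a14 it ran from -0.82 to 1.34 (sign changed without library 2 or 12) and was 0.17 with limma-voom and 0.19 with lane. The cause was not tested. With 2 libraries a group the depth of 11448618 to 14999801 counts limits low genes, and the spread between libraries limits the others.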

Other observations

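Some genes of the unfolded protein response, which chaperone secreted proteins, stood highest in library 2. Hspa5, the main chaperone of the endoplasmic reticulum, stood at 1422 and 3397 CPM at day 0 and at 1029 and 1084 CPM in libraries 12 and 5, and Creld2 at 66.2 and 208 CPM and then at 43.5 and 41.5 CPM. Of 19 genes in that list 0 passed and the median log2 change was -0.357. Mt1, a metallothionein gene that metals and stress hormones drive, stood at 572 and 313 CPM and then at 46.7 and 98.0 CPM (log2 change -2.61 ± 0.67, SE; edgeR adjusted p = 0.113), and passed with DESeq2 (0.0336) and without the ethanol libraries (0.0342). Cytosolic ribosomal protein genes had 23 of 24 negative fitted changes with a median of -0.176, and respiratory chain genes 20 of 21 with a median of -0.26, and in both lists 0 passed. In the 22 cholesterol synthesis genes, which share SREBP control with lipogenesis, the median was 0.169, with 0 called by edgeR and 1 by DESeq2. At an unadjusted p under 0.05, 3 of them were higher, against 8.62% of all genes.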
